A study of Arabidopsis thaliana with 6 samples.

Results

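The genes described here encode the high-affinity nitrate uptake system of Arabidopsis thaliana: the 7 transporter genes NRT2.1 to NRT2.7 and NRT3.1, which encodes their partner protein. They were chosen by function, but with earlier results of these data known, as 8 of the 27444 protein-coding genes in the gene table used. High-affinity uptake is the route by which roots take in nitrate when little of it is in the soil. NRT2 proteins carry nitrate across a membrane, and NRT3.1 is a small membrane protein without which most of them do not work at the plasma membrane. NLP2 is a NIN-like protein, one of a family of transcription factors with an RWP-RK DNA-binding domain that act in the response to nitrate. Transcription of NRT2.1 and NRT3.1 is known to increase when nitrate is given to starved plants.

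Binding of NLP2 was mapped by chromatin immunoprecipitation and sequencing (ChIP-seq). All samples came from the nlp2-2 mutant in the Col-0 background, complemented with pNLP2::NLP2-GFP, so that the tagged protein was expressed from the promoter of NLP2 itself, and chromatin was precipitated with an antibody against GFP. Seedlings, 14 days old by their label, had grown for 10 days on 3 mM KNO3 and were then kept for 3 days without nitrogen. The T30 group then received 3 mM nitrate for 30 min, and the T0 group received fresh medium without nitrogen. Each time had 2 immunoprecipitated (IP) libraries and 1 input library of unprecipitated chromatin. Nothing in the labels tells if the paired IP libraries were grown apart. A line without the GFP tag was not analysed here.

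The authors deposited 1 IP peak list per time, made from pooled replicates. It held 593 peaks at T30 and 579 at T0. Each peak carries the authors' fold, a ratio of signal to background, and a −log10 q, both from their peak caller. The fold had a median of 2.75 at T30 and 2.06 at T0. The lists were called separately, so folds are ranked only within a list. With no value per replicate there is no replicate error and no test between the times, and the read depth is unknown. The members are the 8 genes, and a peak was assigned to a gene when its summit was at most 5000 bp from the gene or in it. This took 4 of the 593 T30 peaks and 0 of the 579 T0 peaks. The 8 genes were all found in the table.

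With nitrate, NLP2-GFP peaks lay beside the NRT2.1 and NRT2.2 pair and at NRT3.1, and beside none of the other 5 transporter genes. Thus 3 of the 8 genes had a T30 summit, and 0 of the 8 had a T0 summit. Over all protein-coding genes the same rule took 5.41% with the T30 list (1485 genes) and 3.76% with the T0 list (1031 genes). A count of 0 among 8 genes is near the T0 share and says nothing particular about the family. Since the 8 genes were chosen with earlier results of these data known, the T30 count is not a test of enrichment. The 3 genes with a summit stand on 2 loci, since NRT2.1 and NRT2.2 share their peaks.

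NRT3.1 (AT5G50200, listed under the symbol WR3 in the gene table) had the highest fold of the family. Its peak, called D here, ran from 20436086 to 20436744 on chromosome 5 of TAIR10, a width of 659 bp, and had its summit at 20436345. The authors' fold was 12.4 and the −log10 q was 911. Peak D was the third of the 593 T30 peaks by fold and the fifth by q. Its fold was 4.51 times the median of the T30 list. Of the 384 T30 peaks with a summit inside or within 1000 bp of a protein-coding gene, it ranked second.

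The summit of D lay inside NRT3.1, and the peak itself reached past the end of the gene on its lower-coordinate side. No other T30 peak lay nearby: the closest one was 219.6 kb away, with a fold of 2.20. The T0 list had no peak within 121.0 kb of D, and the one at that distance had a fold of 1.98. Of the neighbours of NRT3.1, AT5G50180 and the non-coding RNA gene AT5G50190 were also within 5000 bp of the summit.

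**Figure D1:**
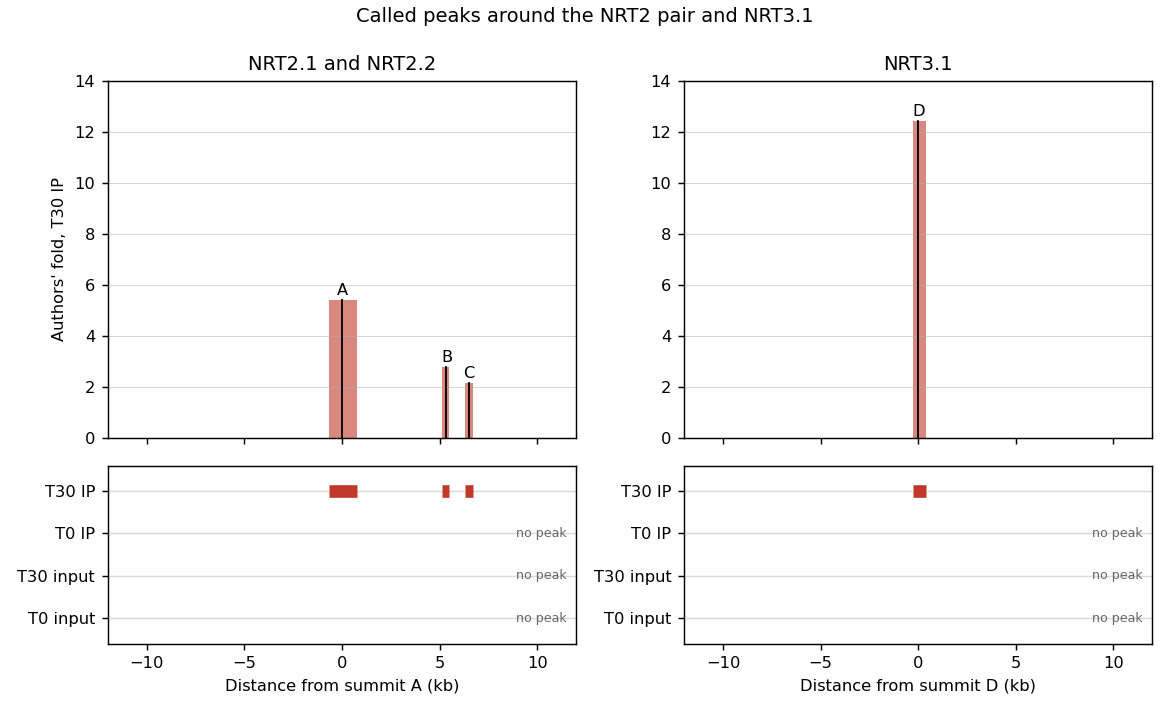
Called peaks within 12 kb of summit A (left) and summit D (right). Upper panels give the authors' fold (vertical axis) of each T30 IP peak, with bar width equal to peak width and a black line at the summit, and lower panels mark the extent of peaks in the T30 IP, T0 IP, T30 input and T0 input lists against distance in kb. Peaks A, B and C have folds of 5.40, 2.78 and 2.14 and peak D has 12.4, and the other 3 lists have no peak in either window.

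NRT2.1 (AT1G08090) encodes the main high-affinity nitrate transporter of the root plasma membrane, and NRT2.2 (AT1G08100), its next neighbour on chromosome 1, a close relative with a smaller part in uptake. Together they had 3 T30 peaks, called A, B and C from low to high coordinate. All 3 summits fell outside both genes and outside the stretch between them: A on the side of NRT2.1, B and C on the side of NRT2.2. The gene table gives no strand, so no summit is called upstream or downstream. The 2 genes are similar in sequence, and how reads that match both were treated is not given in the sources used here.

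Peak A, from 2523269 to 2524714, had its summit at 2523943, within 1000 bp of NRT2.1. Its fold was 5.40 and its −log10 q was 220. It was number 56 of the 593 T30 peaks by fold, so that 90.6% of the list lay below it. The peak reached into NRT2.1, while its summit lay within 5000 bp of NRT2.2 but not within 3000 bp.

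Peak B, from 2529068 to 2529442, had its summit at 2529294, within 1000 bp of NRT2.2, and reached into that gene. Its fold was 2.78 and its −log10 q was 50.8. With rank 287 it stood at the middle of the T30 list. For NRT2.2 taken alone, the nearest summit was therefore much lower in fold than that of NRT2.1.

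Peak C, from 2530259 to 2530673, had its summit at 2530434, within 2000 bp of NRT2.2. Its fold of 2.14 put it at rank 556, near the bottom of the T30 list, and its −log10 q of 21.8 was just above the lowest value that list kept, 20.4. The pseudogene AT1G08105 was nearer to this summit than NRT2.2 was, and the protein-coding gene AT1G08110 was also within 5000 bp. C and B were separate calls with a gap of 817 bp.

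**Figure D2:**
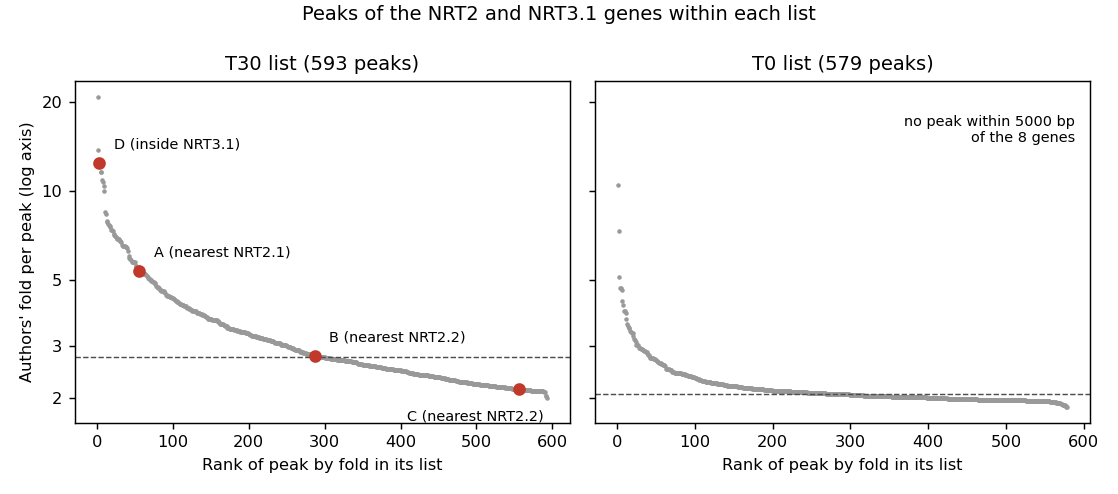
The authors' fold of every peak (vertical log axis) against its rank within its own list, for T30 (left) and T0 (right). Dashed lines mark each list's median (2.75 and 2.06), and red points mark the 4 peaks of the NRT2 and NRT3.1 genes. D lies at rank 3, A at rank 56, B at rank 287 and C at rank 556, while no T0 peak belongs to these genes.

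The 3 peaks beside the NRT2 pair formed a group of their own in the T30 list. Summit B was 5351 bp from A, and summit C was 1140 bp from B. From the start of A to the end of C the group spanned 7405 bp, of which the peaks covered 2236 bp. Grouping all T30 peaks whose neighbouring summits were at most 6500 bp apart, a distance chosen to hold A to C, gave 503 groups. Of these, 440 were single peaks, D among them, 46 were pairs, and 17 had 3 or more peaks. For 10 of these 17 groups no protein-coding gene lay within 5000 bp of any summit. Counted by gene, 11 of the 27444 protein-coding genes (0.0401%) had 3 or more T30 summits inside or within 5000 bp, and NRT2.1 and NRT2.2 were both among them. In the T0 list 1 gene had as many (0.00364%).

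Peak A was also wide for its fold. Its width of 1446 bp compares with a median of 435 bp in the T30 list, and 20 T30 peaks were wider. The 20 T30 peaks nearest to it in fold rank had folds of 5.16 to 5.78 and widths of 434 to 1067 bp, with a median of 524.5 bp. A was thus wider than every one of those 20. Of the 20 wider peaks in the list, 13 overlapped a T0 peak, which A did not. Peaks B, C and D, at 375, 415 and 659 bp, were within the range of widths of their own 20 neighbours in fold rank. The lists give 1 summit per peak, so whether A holds more than 1 maximum cannot be read from them.

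**Figure D3:**
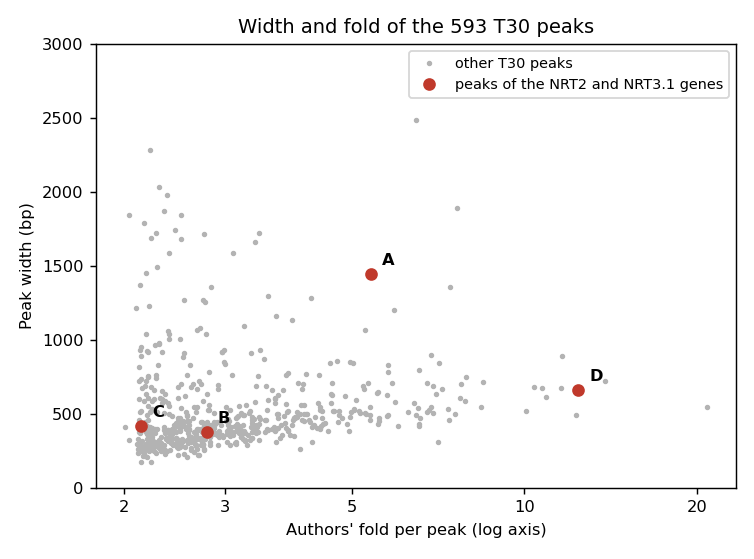
Peak width in bp (vertical axis) against the authors' fold (horizontal log axis) for the 593 T30 peaks, with the 4 peaks of the NRT2 and NRT3.1 genes in red. A, at 1446 bp and a fold of 5.40, sits above the other peaks of similar fold, while B, C and D lie among theirs.

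Without nitrate, none of the 4 regions was in the T0 list. The same holds for 479 of all 593 T30 peaks (80.8%), which overlapped no T0 peak, so the 4 peaks are like most of their list in this. The T0 peak closest to A, B and C was the same for all 3, from 2486221 to 2486874 on chromosome 1, with a fold of 2.00, and it was 36.4 kb from A. The lowest −log10 q kept was 20.4 at T30 and 16.1 at T0. The lists were called separately and at unknown depth, so these limits cannot be compared as strengths of binding. How these lists were filtered is otherwise known only from their names. The absence of a called T0 peak is therefore not a measured level of binding at T0. The input lists held 22 peaks at T30 and 87 at T0, and 0 of the 8 genes lay within 100000 bp of one. Over all protein-coding genes the shares were 1.01% for the T30 input and 1.80% for the T0 input, so this count is near the background too.

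The other 5 transporter genes had no summit within 5000 bp in either list. NRT2.3 (AT5G60780) and NRT2.4 (AT5G60770) are neighbours on chromosome 5, as NRT2.1 and NRT2.2 are on chromosome 1. NRT2.4 encodes a high-affinity transporter that acts in nitrogen-starved plants. Neither gene had a summit within 200000 bp at T30 or at T0, as was the case for 8.99% of all protein-coding genes. The NRT2 genes thus include 2 neighbouring pairs, of which one had 3 T30 peaks and the other none.

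NRT2.5 (AT1G12940), a transporter gene expressed in long-starved plants, had its nearest T30 summit within 20000 bp but not within 10000 bp, at 4432563 with a fold of 2.60. Its nearest T0 summit, at 4450786 with a fold of 2.05, was within 50000 bp. NRT2.6 (AT3G45060) had its nearest T30 summit, at 16343526 with a fold of 5.94, at more than 100000 bp, and no T0 summit within 200000 bp. For comparison, 43.5% of all protein-coding genes had no T30 summit within 100000 bp.

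NRT2.7 (AT5G14570), which encodes a vacuolar transporter that loads nitrate into seeds, was the member closest to a T0 summit without meeting the rule. That summit, at 4687609 on chromosome 5, lay within 10000 bp of the gene, and another gene was nearer to it. Its fold of 1.98 ranked 487 of the 579 T0 peaks and its −log10 q was 16.9, close to the lowest value of that list. The nearest T30 summit, at 4758325 with a fold of 2.24, was within 100000 bp. Within the 5000 bp limit, in turn, the only pairs of member and summit beyond 3000 bp were NRT2.2 with A and NRT2.1 with C.

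The choice of window did not change which members had a T30 summit. NRT2.1, NRT2.2 and NRT3.1 were the members with one at 1000, 2000, 3000, 5000 and 10000 bp, while the share of all protein-coding genes grew through 1.91%, 2.75%, 3.66%, 5.41% and 9.40%. At T0 the members numbered 0 at 1000, 2000, 3000 and 5000 bp, where 1.35%, 1.97%, 2.56% and 3.76% of all genes had a T0 summit. The windows are nested, so 0 members at 5000 bp fixed 0 at the narrower windows. For the same reason a wider window could only add T30 members, and a narrower one could only lose them. The T0 count was 1, NRT2.7, at 10000 bp, against 6.65% of all genes. Other rules gave the same 3 members at T30 and 0 at T0, but not all of them could have changed these counts. Those that only removed peaks could not raise a T0 count of 0. When a summit counted for its nearest protein-coding gene alone, all genes came to 1.84% at T30 and 1.63% at T0. Peak C then still counted for NRT2.2, since the nearer AT1G08105 is a pseudogene. With peaks at or above the median fold of their list, which left out C and kept A, B and D, all genes came to 3.00% at T30 and 1.52% at T0. At the −log10 q cut-off of 20.4 for both lists, all genes came to 5.41% at T30 and 1.16% at T0. That cut-off is the lowest value of the T30 list, so it removed no T30 peak. Without peaks that overlap an input peak, which none of the member peaks did, all genes came to 5.39% at T30 and 3.75% at T0. With any base of the peak in place of the summit, a looser rule that also gave these 3 members at T30 and 0 at T0, all genes came to 5.67% at T30 and 4.05% at T0.

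**Figure D4:**
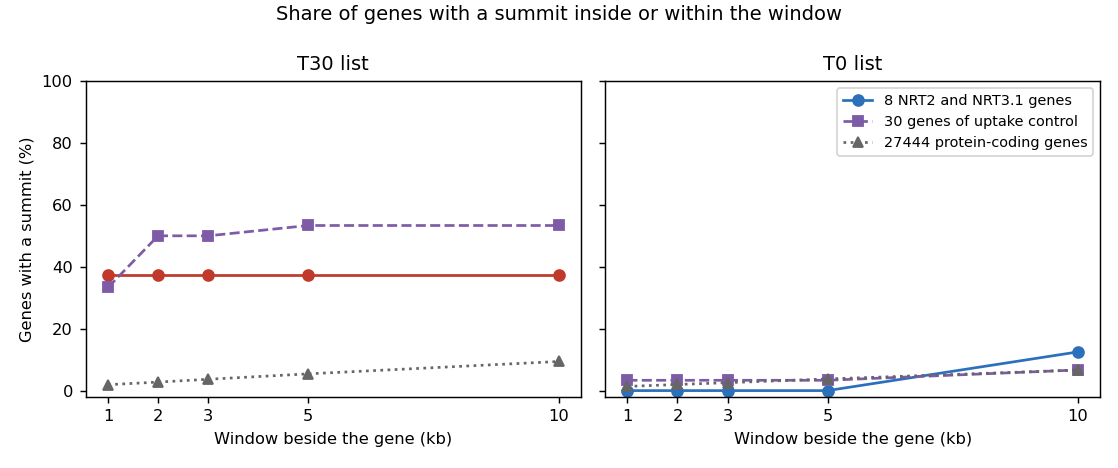
Percentage of genes with a summit inside or within a given window (horizontal axis, kb) in the T30 list (left) and the T0 list (right). Circles are the 8 NRT2 and NRT3.1 genes, squares the 30 genes of uptake control and triangles all 27444 protein-coding genes. With T30 the 8 genes stay at 37.5% at every window, and with T0 they are at 0 until 10 kb.

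Genes of high-affinity uptake control or of the wider nitrate response, called genes of uptake control here, were looked at in the same way. The list of 30 was chosen with earlier results of these data known. It holds transcription factors, kinases and other proteins that act on NRT2.1, on nitrate sensing or in the nitrate response. Of the 30 genes, 16 had a T30 summit inside or within 5000 bp, against 5.41% of all protein-coding genes. Since the list was chosen with earlier results known, neither its shares nor its folds are a test of enrichment. At T0 the list had 1 gene with a summit, against 3.76% of all protein-coding genes, and 0 genes had one at both times, against 0.492% of all protein-coding genes (135 genes). Since 1 of the 30 had a T0 summit, at most 1 could be shared. The highest T30 fold of each of the 16 genes ran from 2.32 to 7.92, with a median of 4.66, while the median over all 1485 genes with a T30 summit was 2.87. None of the 16 reached the fold of 12.4 at NRT3.1.

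The highest folds of this list were at LBD37 (AT5G67420) and LBD39 (AT4G37540), LOB-domain genes known as repressors of nitrogen-responsive genes, with T30 folds of up to 7.92 and 7.71. Their relative LBD38 (AT3G49940) had 2 peaks with folds of 5.08 and 4.59. LBD37 had 3 summits within 5000 bp, as did AT1G68670, so both are, with NRT2.1 and NRT2.2, among the 11 genes with 3 or more. Unlike at the NRT2 pair, 2 of the 3 peaks of LBD37 were high, at 7.92 and 7.38, with the third at 2.33. At AT1G68670 they were 2.83, 2.77 and 2.19, near or below the T30 median of 2.75.

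BT2 (AT3G48360) and BT1 (AT5G63160), BTB-domain genes that reduce NRT2.1 expression when nitrate is low, had folds of 6.81 and 5.78. The GARP-family repressor gene HRS1 (AT1G13300) had 2 summits, the higher at 4.42. Folds of 6.92, 3.82 and 3.66 were found at AT1G25550, AT3G25790 and AT3G60320, but the summits counted for AT3G25790 and AT3G60320 were nearer to AOC3 (AT3G25780) and AT3G60310. AFB3, an auxin receptor gene of the nitrate response in roots, had a fold of 5.27. TGA4 and TGA1, bZIP factors that bind the NRT2.1 promoter, had folds of 4.90 and 3.25.

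The lowest folds of the 16 genes were at NRT1.1, CIPK23 and AT4G32950. NRT1.1 (AT1G12110), the dual-affinity transporter that also senses nitrate, had 1 T30 summit with a fold of 2.60, within 5000 bp but not within 3000 bp. CIPK23 (AT1G30270), the kinase that phosphorylates NRT1.1, had a fold of 2.74, and AT4G32950 one of 2.32. In these 3 the highest fold was below the median of the T30 list. The 1 gene with a T0 summit was CPSF30 (AT1G30460), an RNA-processing factor gene of the nitrate response, with a summit inside it and a fold of 2.01. All other genes of the 30 had no summit within 5000 bp at either time. They were CBL1, CBL9, CIPK8, AT1G06830, AT2G47880, AT2G47870, IWS1, HY5, NLP6, NLP7, SPL9, TCP20 and AT4G24730.

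**Figure D5:**
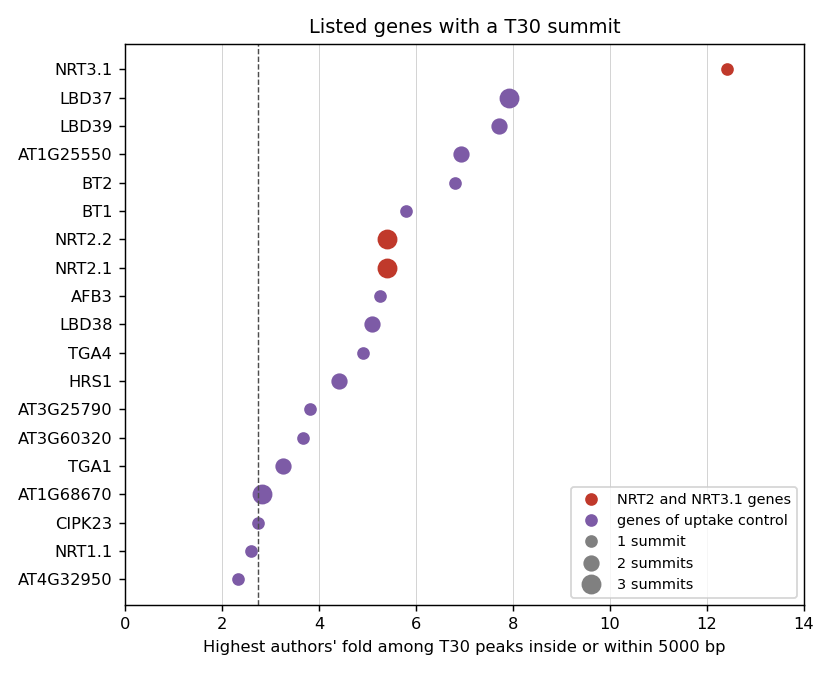
Highest authors' fold among the T30 peaks inside or within 5000 bp (horizontal axis) for the 3 NRT2 and NRT3.1 genes (red) and the 16 genes of uptake control (purple) that had one. Point size gives the number of summits, and the dashed line is the median fold of the T30 list, 2.75. NRT3.1 has the highest value at 12.4, and NRT2.1 and NRT2.2 share the same peak at 5.40.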

How the data were processed

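The submitters' processing notes name TAIR10 as the build and, among the tools, MACS2 2.1.1, Bowtie2 2.3.4.1 and SAMtools 1.7. Per the labels' protocols, chromatin was crosslinked in 2 steps and libraries were read as paired ends of 41 bp. Per the file headers, the authors deposited for each IP peak a fold (a ratio), a −log10 q, a score and a summit offset, among other values, and for each input peak a fold and a −log10 q. In 100% of IP peaks the deposited score is the whole part of 10 times −log10 q. That the authors pooled replicates and kept reproducible peaks (IDR) is known from the lists' names alone. These names also hold the unexplained tags noCM and noINPUT.

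Positions are 1-based on TAIR10. Genes came from a RefSeq table of TAIR10.1, taken to have the same nuclear coordinates; it has no strand, exons or sequence, and none of its coordinates are printed. Of the 30 control genes, 9 are in it by locus code alone and are printed so. Summits were assigned to genes with Python 3.11.15 and pandas 2.3.3, and the assignment was tested on planted summits. Genes named are the 8 members, all genes of the list and genes next to the peaks of either. The members, list and windows were chosen with earlier results of these data known. No test was made.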

Additional observations from a re-analysis of the deposited data

How the results depend on the processing

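The T30 members stayed NRT2.1, NRT2.2 and NRT3.1, on 3 or 4 peaks, under 9 other rules and 4 moves of the gene table. The 4 moves were chosen after seeing the data. In these settings the share of all protein-coding genes with a T30 peak ran from 1.84% to 9.40%. T0 members numbered 0 with any base of the peak in place of its summit, where 4.05% of all protein-coding genes had a T0 peak. They also numbered 0 at the shared −log10 q cut-off of 20.4 (1.16%) and with peaks at or above the median fold (1.52%). The same held without peaks that overlap input peaks (3.75%) and with a summit counted for the nearest protein-coding gene alone (1.63%). Rules that only removed peaks, and windows narrower than 5000 bp, could not raise a T0 count of 0. The shared cut-off removed no T30 peak. With a window of 10000 bp, T0 had 1 member on 1 peak, against 6.65% of all protein-coding genes. Overlap of member peaks with T0 was 0 at 1 bp and at 50% of the narrower peak, as for 80.8% and 80.9% of all T30 peaks. With 0 at 1 bp, the 50% rule could give only 0. Among the 30 control genes, a window of 1000 bp left 10 at T30, against 1.91% of all protein-coding genes. At T0 they numbered 2 at 10000 bp, 0 at the shared cut-off and 0 at the median fold. The shares of all protein-coding genes there were 6.65%, 1.16% and 1.52%. These control list alternatives were added after seeing the data. Whether a summit lies inside a gene is less firm: with the table moved by 500 bp one way, summit D fell outside NRT3.1 but within 1000 bp, and moved the other way, summit A fell inside NRT2.1.

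No paired analysis was possible because each IP list pools its replicates, so leaving out a replicate was not run either. The search for nitrate-responsive elements was not run. Depth is unknown, so a missing peak is not a measured absence.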
